A study of Arabidopsis thaliana with 12 samples.

Results

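Full-size ABCG transporters are large membrane proteins in which a pair of ATP-binding domains drives substrates across the plasma membrane. In plants this subfamily, also called PDR for pleiotropic drug resistance, moves hormones, wall and cuticle precursors and antimicrobial compounds. It is known for its part in defence at the cell surface. The genes described are ABCG29 [AT3G16340], ABCG31 [AT2G29940], ABCG32 [AT2G26910], ABCG33 [AT2G37280], ABCG34 [AT2G36380], ABCG35 [AT1G15210], ABCG36 [AT1G59870], ABCG37 [AT3G53480], ABCG39 [AT1G66950] and ABCG40 [AT1G15520] of Arabidopsis thaliana, taken by locus name. ABCG36 is called PEN3 below. All 10 were found among the 32846 genes of the deposited table, and 9 of them passed the filter on low values, which kept genes that reached 1 FPKM in 3 or more libraries.

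RNA came from whole seedlings of the accession Columbia 0, aged 7 to 10 days, given 1 µM AtPep1 or water for 24 h. AtPep1 is a peptide that plants release on damage and sense with the receptors PEPR1 and PEPR2. The 4 groups were wild type with water, wild type with AtPep1, the mutant labelled rrm/irr with water and the same mutant with AtPep1, with 3 libraries each. Seedlings were kept in liquid medium, about 15 to a well, so each library pools plants. The labels name neither the irr allele nor a second line, and do not say whether the replicates of a group were grown apart, and p-values therefore reflect no more than the variation among these libraries, which may be technical. IRR is known from published work as AT3G23900, an RNA-binding protein. Its level was 12.8 ± 1.93 FPKM in wild type with water and 12 ± 0.72 FPKM in irr with water (SD, n = 3 each), so the genotype rests on the labels.

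Levels are given as FPKM, in which fragment numbers are scaled by gene length and library size, so that they can be compared between genes. Library totals, recovered from the steps between values, lay between 17408882 and 28594341 reads in 11 libraries and at 56490798 reads in irr water replicate 3. Several of these totals exceed the 20 M raw reads per sample that the labels state, and whether they count reads or fragments is not known; they are called reads below. Group values below are mean FPKM ± SD with n = 3. Fold changes are log2 values ± SE on the log2(FPKM + 1) scale, which understates the change of low genes. In whole seedlings, fewer cells of a type and less RNA per cell cannot be told apart.

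PEN3 stood far above the other members in every library. This exporter acts in penetration resistance to fungi and also in the efflux of the auxin precursor indole-3-butyric acid. Its mean over the 12 libraries was 213 FPKM, above 97.5% of the genes that passed the filter, and it made up 73.3% of the summed level of the 10 members. ABCG32 came next at 34.1 FPKM, then ABCG34 at 19.1, ABCG37 at 10.9, ABCG29 at 5.72 and ABCG35 at 4.37 FPKM. ABCG33, ABCG31 and ABCG40 were low, with means of 1.48, 1.31 and 0.627 FPKM, and ABCG39 was close to 0 at 0.029 FPKM. Over all 12 libraries the ranges of PEN3 and ABCG32 did not overlap each other or those below them. The ranges of neighbouring members did overlap from ABCG34 to ABCG35 and from ABCG33 to ABCG40.

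**Figure D1:**
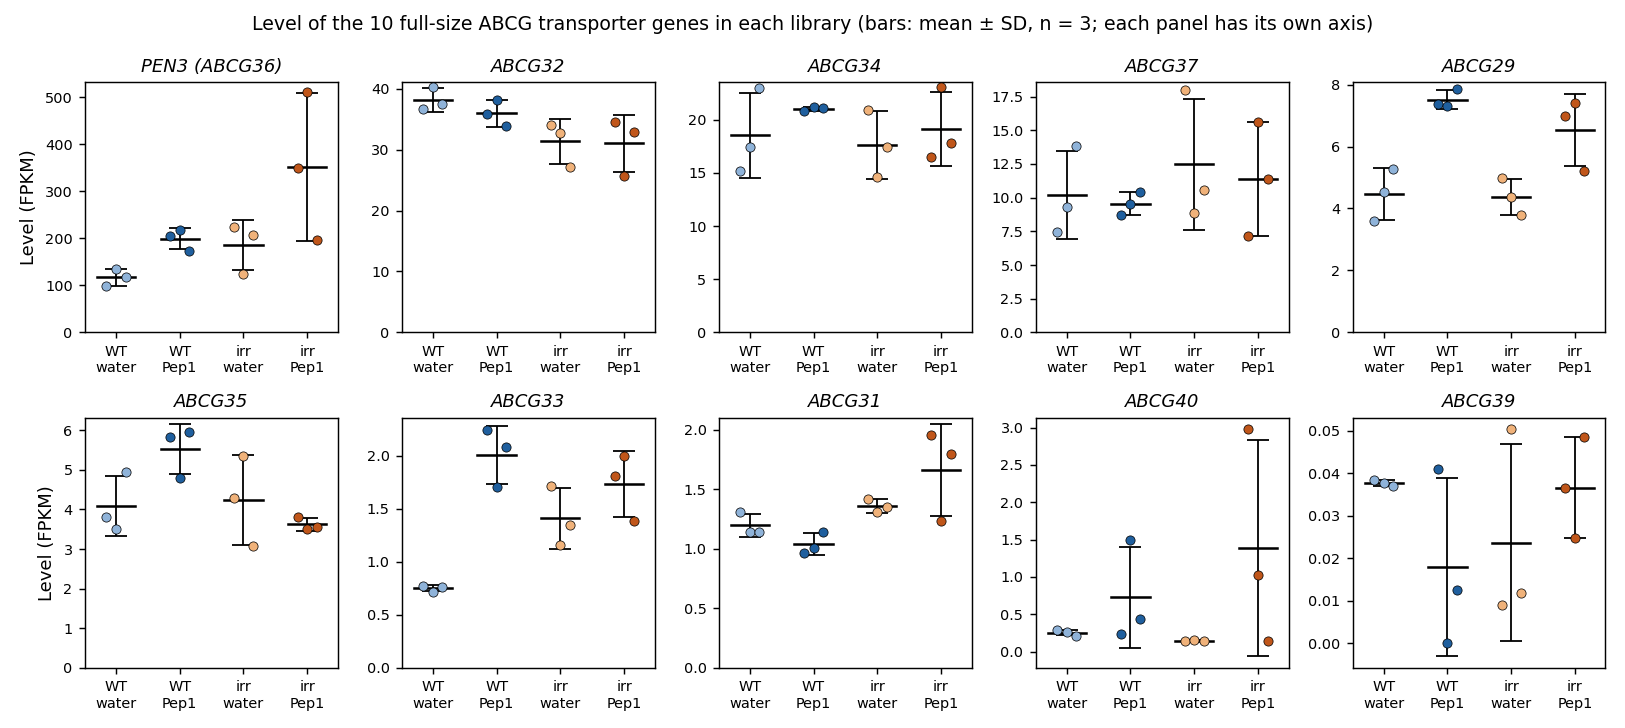
Level in FPKM (vertical axis, separate for each gene) of the 10 members in the 4 groups (horizontal axis); points are libraries, and bars are the mean ± SD of 3. PEN3 reached 511 FPKM in irr with Pep1, and the 3 wild type libraries with Pep1 lay above the 3 with water for ABCG29, ABCG33 and PEN3.

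The first comparison set wild type seedlings given Pep1 for 24 h against those given water. ABCG29 and ABCG33 rose, 2 of the 9 members tested, and 0 fell. Of all 18177 genes tested, 2.13% rose and 1.34% fell (limma with Benjamini-Hochberg adjustment, adjusted p under 0.05, two-sided). ABCG29, known to carry the lignin precursor p-coumaryl alcohol, was at 3.60, 4.53 and 5.29 FPKM with water, against 7.37, 7.30 and 7.86 FPKM with Pep1. All 3 libraries with Pep1 lay above all 3 with water. The means were 4.47 ± 0.846 and 7.51 ± 0.307 FPKM, a fold change of 0.65 ± 0.15 (limma adjusted p = 0.0375). ABCG33 was at 0.775, 0.718 and 0.766 FPKM with water and at 2.24, 1.71 and 2.08 FPKM with Pep1. The groups did not overlap, and the means of 0.753 ± 0.0308 and 2.01 ± 0.271 FPKM differed 2.67-fold. Its fold change was 0.78 ± 0.14 (limma adjusted p = 0.0181). The water libraries lay under the 1 FPKM of the filter, which ABCG33 reached in the other 9 libraries.

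Both calls were lost when any 1 of 5 wild type libraries was left out, while the fold changes stayed at 0.53 to 0.67 for ABCG29 and 0.72 to 0.85 for ABCG33. Over all genes the calls fell too, from 630 to between 105 and 169 for the same 5 libraries. The adjusted p of ABCG29 was 0.152, 0.101, 0.108, 0.115 and 0.121 without WT water replicates 1 and 2 and WT Pep1 replicates 1, 2 and 3, and that of ABCG33 was 0.070, 0.0641, 0.0789, 0.0513 and 0.0674. ABCG29 also missed the threshold with no filter on low values (limma adjusted p = 0.0685) and with a replicate block (limma adjusted p = 0.0667). In the reference annotation ABCG33 overlaps the neighbouring gene AT2G37290, and how the authors divided such reads is not given. AT2G37290 stood at 0.967 ± 0.157 FPKM with water and 1.24 ± 0.26 FPKM with Pep1 (0.18 ± 0.17, limma adjusted p = 0.586).

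PEN3 missed the threshold, although its libraries also separated. It was at 99.1, 135 and 118 FPKM with water and at 205, 218 and 174 FPKM with Pep1. The fold change was 0.76 ± 0.30, with a 95% interval from 0.10 to 1.42 (limma adjusted p = 0.177). In a fit of only the wild type libraries the adjusted p was 0.00871, and with library quality weights it was 0.0362. Calls over all genes rose too, from 387 higher and 243 lower to 1282 and 718, and to 1257 and 768. Of the 12 fits that left out 1 library, 0 called PEN3 (limma adjusted p from 0.067 to 0.419). Counting ABCG31, whose 3 libraries with Pep1 lay just below the water libraries, the groups were apart for 4 of 9 members, beside 33.4% of all genes tested.

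ABCG34 and ABCG35 had values that missed the threshold. ABCG34, known to secrete the phytoalexin camalexin, stood at 18.5 ± 4.0 FPKM with water and 21.0 ± 0.181 FPKM with Pep1 (0.19 ± 0.17). ABCG35 is the member closest to PEN3 in coding sequence, at 81.3% identity. It stood at 4.08 ± 0.769 and 5.52 ± 0.639 FPKM, and its fold change was 0.37 ± 0.17 (limma adjusted p = 0.234). PEN3 and ABCG35 were also the only pair, of 95 pairs that set a member against another full-size ABCG gene, to share any stretch of 50 bases in the coding sequence.

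ABCG32, ABCG37 and ABCG31 lay within 0.11 of no change on the log2 scale. ABCG32, which exports cutin precursors for the cuticle, was at 38.1 ± 1.92 FPKM with water and 35.9 ± 2.24 FPKM with Pep1, a difference of -0.08 with a 95% interval from -0.35 to 0.18. ABCG37, which acts at the root surface in auxin precursor efflux and in the secretion of coumarins, was at 10.2 ± 3.28 and 9.55 ± 0.875 FPKM, with a wider interval from -0.68 to 0.59. ABCG31, known as an exporter of abscisic acid in seeds, was at 1.2 ± 0.101 and 1.04 ± 0.0874 FPKM.

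ABCG40 varied widely among replicates. This gene encodes an importer of abscisic acid known from guard cells. It was at 0.284, 0.265 and 0.213 FPKM with water and at 0.236, 1.5 and 0.441 FPKM with Pep1. Only replicate 2 with Pep1 stood well above the water libraries, with 130 reads against 21 to 37 reads in the water libraries. ABCG39, known for uptake of the herbicide paraquat, had 0 to 5 reads in each of the 12 libraries and was not tested. WT Pep1 replicate 2 had 0 reads, which allows a level of up to 0.0347 FPKM, counting error only.

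Summed levels of tissue markers lay apart between the treatments in wild type, although 0 of 9 root and 0 of 9 shoot markers tested passed (limma). Of all genes, 2.13% rose and 1.34% fell. The summed level of 12 root markers ran from 39.8 to 63.5 FPKM with water and from 68.0 to 87.4 FPKM with Pep1, where ESB1 was at 0 in at least 1 library. That of 9 shoot markers ran from 78793 to 94458 FPKM with water and from 57261 to 70242 FPKM with Pep1. The part of tissue makeup in the results for ABCG29 and ABCG33 was not tested.

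**Figure D2:**
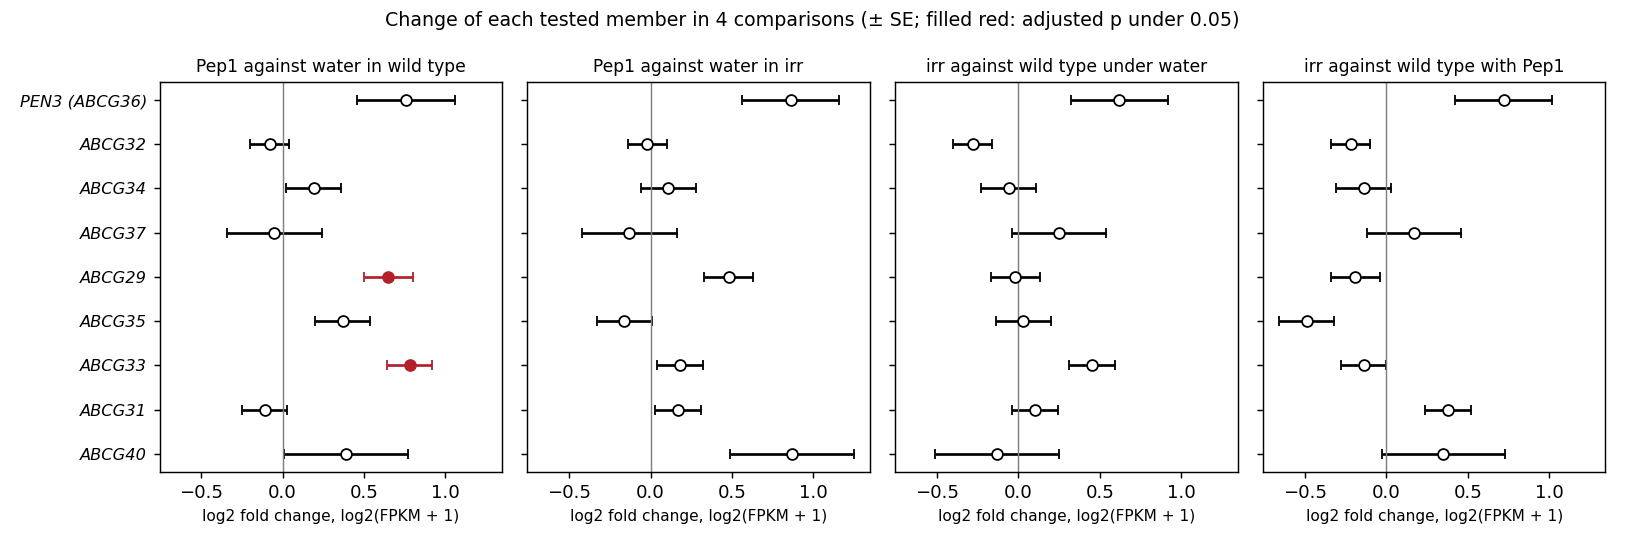
Log2 fold change on the log2(FPKM + 1) scale ± SE (horizontal axis) of the 9 members tested (vertical axis) in 4 comparisons; filled red points have an adjusted p under 0.05. These are ABCG33 at 0.78 and ABCG29 at 0.65, both for Pep1 in wild type.

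In irr the same question gave 0 of 9 members past the threshold in either direction (limma), beside 1.99% of all genes called. An unadjusted p under 0.05 was found for 3 of the 9 members and for 3315 of all 18177 genes tested. PEN3 was at 225, 125 and 206 FPKM with water and at 349, 511 and 197 FPKM with Pep1. Replicates 1 and 2 with Pep1 stood above every water library, while replicate 3 lay between them. The fold change was 0.86 ± 0.30 (95% interval 0.21 to 1.52, limma adjusted p = 0.162). Without irr Pep1 replicate 3 it was 1.23 (adjusted p = 0.0146), and with library quality weights the adjusted p was 0.0461. Those settings also raised the calls over all genes, from 362 to 1398 and 1041. Over the 12 fits that each left out 1 library, the fold change ran from 0.54 to 1.23. The limma adjusted p went up to 0.471, and 1 of the 12 fits called PEN3.

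ABCG40 was at 0.143, 0.151 and 0.140 FPKM in irr with water and at 2.98, 1.03 and 0.146 FPKM with Pep1. Here too replicate 3 with Pep1 stayed at the level of the water libraries, while replicate 1 had 244 reads. The means of 0.145 ± 0.00585 and 1.38 ± 1.45 FPKM gave a fold change of 0.87 ± 0.38 (limma adjusted p = 0.247), or 1.31 without replicate 3 (adjusted p = 0.033). Of the 9 fits that left out 1 library and tested ABCG40, 1 called it, with limma adjusted p up to 0.47. The gene reached 1 FPKM in 3 libraries, all with Pep1, and passed the filter through them. ABCG29 was at 4.97, 4.36 and 3.80 FPKM with water and at 7.00, 7.41 and 5.2 FPKM with Pep1, and it was the 1 member whose groups did not overlap, beside 17.9% of all genes. Its fold change of 0.48 ± 0.15 missed the threshold (limma adjusted p = 0.124) and was 0.62 without replicate 3 (adjusted p = 0.0289). Of the 12 fits that left out 1 library, 1 called ABCG29, with limma adjusted p up to 0.333.

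The other 6 members moved less. ABCG33 was at 1.72, 1.16 and 1.35 FPKM with water and at 1.81, 2.0 and 1.39 FPKM with Pep1 (0.18 ± 0.14), so the groups overlapped. ABCG31, ABCG34, ABCG32, ABCG37 and ABCG35 had fold changes of 0.17, 0.11, -0.02, -0.13 and -0.16. Root markers summed to between 52.9 and 62.1 FPKM with water and between 38.8 and 61.6 FPKM with Pep1, with the lowest sum in Pep1 replicate 3, and ESB1 with water and RHS13 and EXPA18 with Pep1 were at 0 in at least 1 library. The root hair gene RHS13 fell from 3.24 ± 0.828 to 0.0494 ± 0.0428 FPKM (limma adjusted p = 0.0176) and the root hair expansin gene EXPA7 from 4.36 ± 1.51 to 0.486 ± 0.285 FPKM (adjusted p = 0.0312). The part of root tissue in the members' values was not tested.

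Genotypes were compared in each treatment, which asks whether the irr libraries differ from wild type. The comparison under water shares its wild type libraries with the Pep1 comparison in wild type. Under water 0 of 9 members passed (limma), beside 3.92% of all genes. An unadjusted p under 0.05 was found for 2 of the 9 members and for 3976 of all 18177 genes tested. ABCG33 in irr, at 1.16 to 1.72 FPKM, lay above all wild type water libraries, at 0.718 to 0.775 FPKM (0.45 ± 0.14, limma adjusted p = 0.0971). AT2G37290, which overlaps ABCG33, stood at 1.53 ± 0.424 FPKM in irr with water and 0.967 ± 0.157 FPKM in wild type with water. Its irr water replicate 2, at 1.05 FPKM, lay inside the wild type range. The part of shared reads in the ABCG33 value was not tested. ABCG32 was lower in all 3 irr libraries, at 34.0, 32.8 and 27.2 FPKM against 36.7, 40.3 and 37.4 FPKM (-0.28 ± 0.12, limma adjusted p = 0.200). ABCG40, at 0.140 to 0.151 against 0.213 to 0.284 FPKM, was the third member whose groups were apart, beside 28.1% of all genes. PEN3 had a value of 0.62 ± 0.30, with irr water replicate 2, at 125 FPKM, inside the wild type range. The shoot markers summed to between 59541 and 70205 FPKM in irr with water, below every wild type water library at 78793 to 94458 FPKM, and their part in these values was not tested.

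With Pep1, again 0 of 9 passed (limma), beside 1.53% of all genes. An unadjusted p under 0.05 was found for 3 of the 9 members and for 3210 of all 18177 genes tested. PEN3 had the largest value among the 9, 0.72 ± 0.30 (95% interval 0.06 to 1.38, limma adjusted p = 0.242). Replicates 1 and 2 of irr stood above the 3 wild type libraries and replicate 3 lay among them. Without irr Pep1 replicate 3 the value was 1.09 (adjusted p = 0.0192), and with library quality weights the adjusted p was 0.04. Those settings also raised the calls over all genes, from 278 to 1639 and 1821. Over the 12 fits that each left out 1 library, the PEN3 value ran from 0.40 to 1.09. The limma adjusted p went up to 0.597, and 1 of the 12 fits called PEN3. ABCG35 was at 3.80, 3.50 and 3.56 FPKM in irr and at 5.83, 4.79 and 5.95 FPKM in wild type, so it lay lower in all 3 irr libraries (-0.49 ± 0.17, limma adjusted p = 0.154). ABCG31 was at 1.96, 1.23 and 1.80 FPKM in irr and at 0.968, 1.01 and 1.14 FPKM in wild type (0.38 ± 0.14, limma adjusted p = 0.187), or 0.48 with library quality weights (adjusted p = 0.0281). These 2 were the members whose groups were apart, beside 23.2% of all genes. The root markers summed to between 38.8 and 61.6 FPKM in irr with Pep1 and to between 68.0 and 87.4 FPKM in wild type, and their part in these values was not tested.

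The interaction asked whether the Pep1 effect differs between genotypes. It called 0 of 9 members and 0% of all genes (limma), with 2 members and 1219 genes at an unadjusted p under 0.05. The 2 members were ABCG33, at -0.60 ± 0.20 (limma adjusted p = 0.607), and ABCG35, at -0.52 ± 0.23 (adjusted p = 0.733). ABCG33 was thus called in wild type and not in irr, but a difference between the genotypes was not shown. For PEN3 the interaction was 0.10 ± 0.43.

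**Figure D3:**
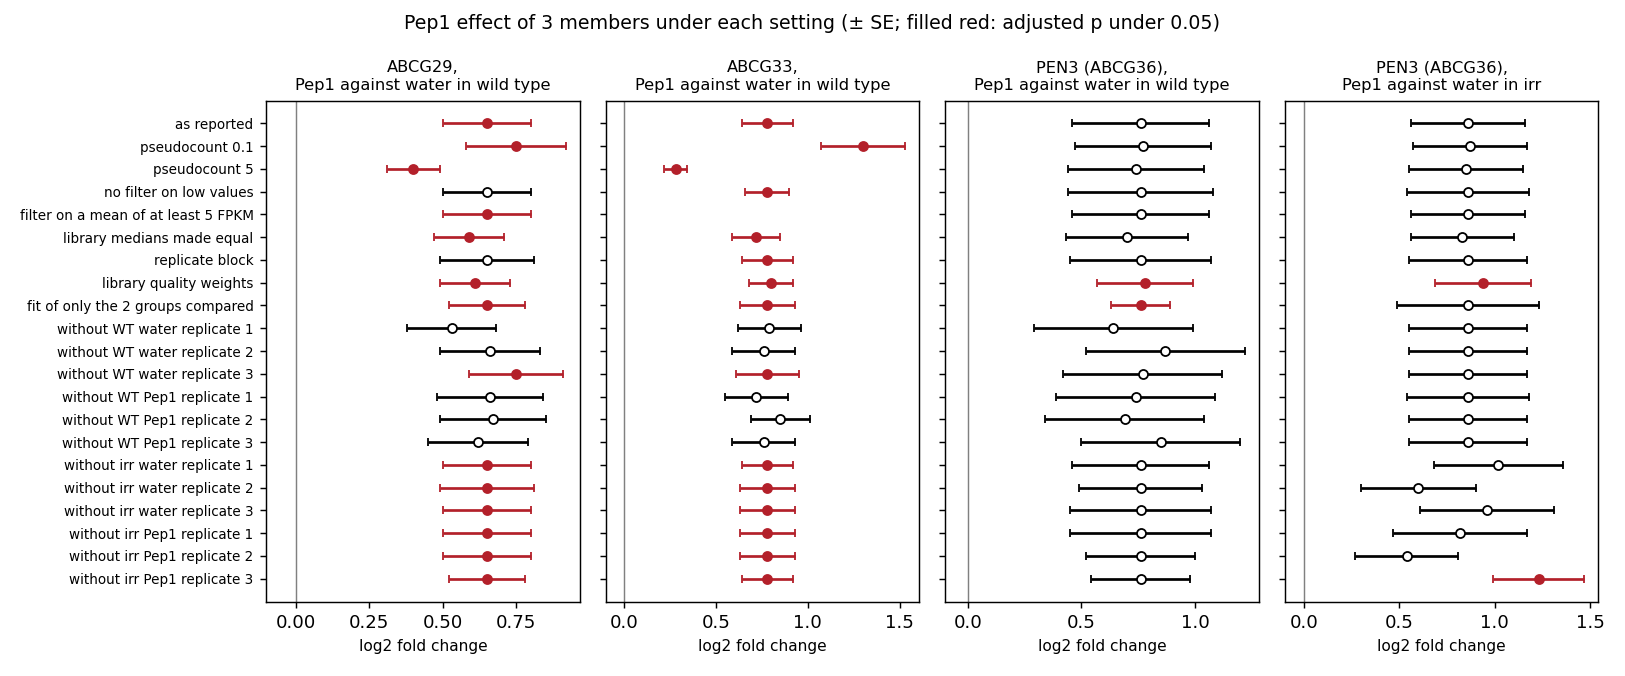
Log2 fold change ± SE (horizontal axis) of ABCG29, ABCG33 and PEN3 for Pep1 against water under each setting (vertical axis); filled red points have an adjusted p under 0.05. In irr, PEN3 ran from 0.54 to 1.23, with the highest value without irr Pep1 replicate 3.

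The members varied together to different degrees over the 12 libraries, given as a description. ABCG29 and ABCG33 had a Pearson r of 0.78, and ABCG33 and PEN3 one of 0.74. The lowest, of -0.60, was that of PEN3 and ABCG32. These libraries share treatment and genotype groups. Among all genes, those most like ABCG29 were DAG1, which encodes a transcription factor of seed germination, at r = 0.965, CAT9, a cationic amino acid transporter, at 0.959 and AT4G03230 at 0.945. DAG1 stood at 6.43 ± 0.661 and 13.2 ± 0.346 FPKM in wild type with water and Pep1, and at 6.91 ± 0.758 and 10.7 ± 1.4 FPKM in irr. Most like ABCG33 were the peroxidase gene PRX52 (r = 0.947), AT4G22770 (0.945) and AT1G05120 (0.941).

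Genes that make what these transporters carry were read from lists. Camalexin is a substrate known for ABCG34 and PEN3. Of 7 tested genes for its synthesis, 1 rose with Pep1 in wild type and 2 in irr, beside 2.13% of all genes higher in wild type and 1.99% called in irr, and the median fold changes were 1.64 and 1.73, beside 0.04 and 0.00 over all genes. PAD3, the last enzyme, rose from 0.14 ± 0.0857 to 5.39 ± 1.26 FPKM in wild type (limma adjusted p = 0.01) and from 0.455 ± 0.276 to 10.1 ± 6.05 FPKM in irr (adjusted p = 0.0171). It reached 1 FPKM in 6 libraries, all with Pep1, and passed the filter through them. CYP79B3, an early enzyme of indole metabolism, rose in irr by 1.73 ± 0.35. In irr against wild type, 3 of 7 were higher under water (CYP71A12, GSTF6 and the regulator WRKY33) and 2 of 7 with Pep1 (CYP79B2 and CYP71A12), beside 3.92% and 1.53% of all genes called in either direction. CYP71A12 and GSTF6 each have a close copy, so their reads may be divided uncertainly. ABCG34 itself stood between 14.6 and 23.1 FPKM over all 12 libraries.

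Of 10 genes that act beside PEN3 in penetration resistance, 0 passed with Pep1 in either genotype (limma), with medians of 0.20 in wild type and 0.43 in irr. Of all genes, 2.13% rose and 1.34% fell with Pep1 in wild type and 1.99% were called in irr, so 0 is near these shares. In irr, SYP122, a syntaxin of the plasma membrane, was higher under water, at 43.6 ± 8.22 against 17.5 ± 3.28 FPKM (1.27 ± 0.28, limma adjusted p = 0.0321). With Pep1 it was at 83.0 ± 39.7 against 24.0 ± 1.81 FPKM (1.64 ± 0.28, adjusted p = 0.0203). CYP81F2, which modifies the indole glucosinolates that PEN2 activates, was higher with Pep1, at 101 ± 76.5 against 8.55 ± 2.03 FPKM (adjusted p = 0.0397). Thus 1 of 10 passed under water and 2 of 10 with Pep1, beside 3.92% and 1.53% of all genes. The medians of the list were 0.54 under water and 0.66 with Pep1, beside 0.03 and -0.03 over all genes. PEN2, the glucosidase of this pathway, did not pass in any comparison. It stood at 81.4 ± 3.83 and 106 ± 5.97 FPKM in wild type with water and Pep1, and at 107 ± 24 and 152 ± 57.1 FPKM in irr.

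For the coumarins that ABCG37 secretes, 4 of 10 genes of coumarin synthesis and iron deficiency passed the filter. AT3G13610, which encodes the scopoletin enzyme F6'H1, was higher in irr in both treatments. It was 1 of 4 tested, beside 3.92% of all genes called under water and 1.53% with Pep1. It stood at 20.6 ± 9.04 against 4.44 ± 1.69 FPKM under water (1.93 ± 0.40, limma adjusted p = 0.027) and at 49.4 ± 20.9 against 5.26 ± 1.47 FPKM with Pep1 (2.93 ± 0.40, adjusted p = 0.00788). ABCG37 had genotype differences of 0.25 ± 0.29 and 0.17 ± 0.29 in the same comparisons. With Pep1, 0 of the 4 genes passed in either genotype. Of all genes, 2.13% rose and 1.34% fell in wild type and 1.99% were called in irr. The list had medians of 0.01 and 0.13 between genotypes, under water and with Pep1, and of -0.12 and 0.03 for Pep1 in wild type and in irr.

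Among 13 genes of monolignol synthesis, the pathway of the ABCG29 substrate, 0 passed with Pep1 and the medians were 0.71 in wild type and 0.47 in irr. Of all genes, 2.13% rose and 1.34% fell with Pep1 in wild type and 1.99% were called in irr. The entry enzymes PAL1 and C4H were higher in irr than in wild type under water, by 2.61 ± 0.53 and 1.46 ± 0.37 (limma adjusted p = 0.0267 and 0.0486). They were 2 of 13, beside 3.92% of all genes called under water. ABCG29 differed by -0.02 ± 0.15 there. Of the 11 tested cutin genes, which serve the same cuticle as ABCG32, 0 passed in any comparison, with medians of -0.52 for Pep1 in wild type, 0.02 for Pep1 in irr, -0.38 for the genotypes under water and 0.00 with Pep1. Both negative medians rest on the same wild type water libraries. Of 12 genes for abscisic acid synthesis, breakdown and transport, 0 passed in any comparison, and the medians lay between -0.08 and 0.25. Between 1.53% and 3.92% of all genes were called for treatments and genotypes, so 0 is near that share for the cutin and abscisic acid lists. Among 4 genes that convert indole-3-butyric acid, IBR1 rose with Pep1 in wild type, from 19.1 ± 1.06 to 24.4 ± 0.86 FPKM (0.34 ± 0.08, limma adjusted p = 0.0449). It was 1 of 4, beside 2.13% of all genes higher.

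**Figure D4:**
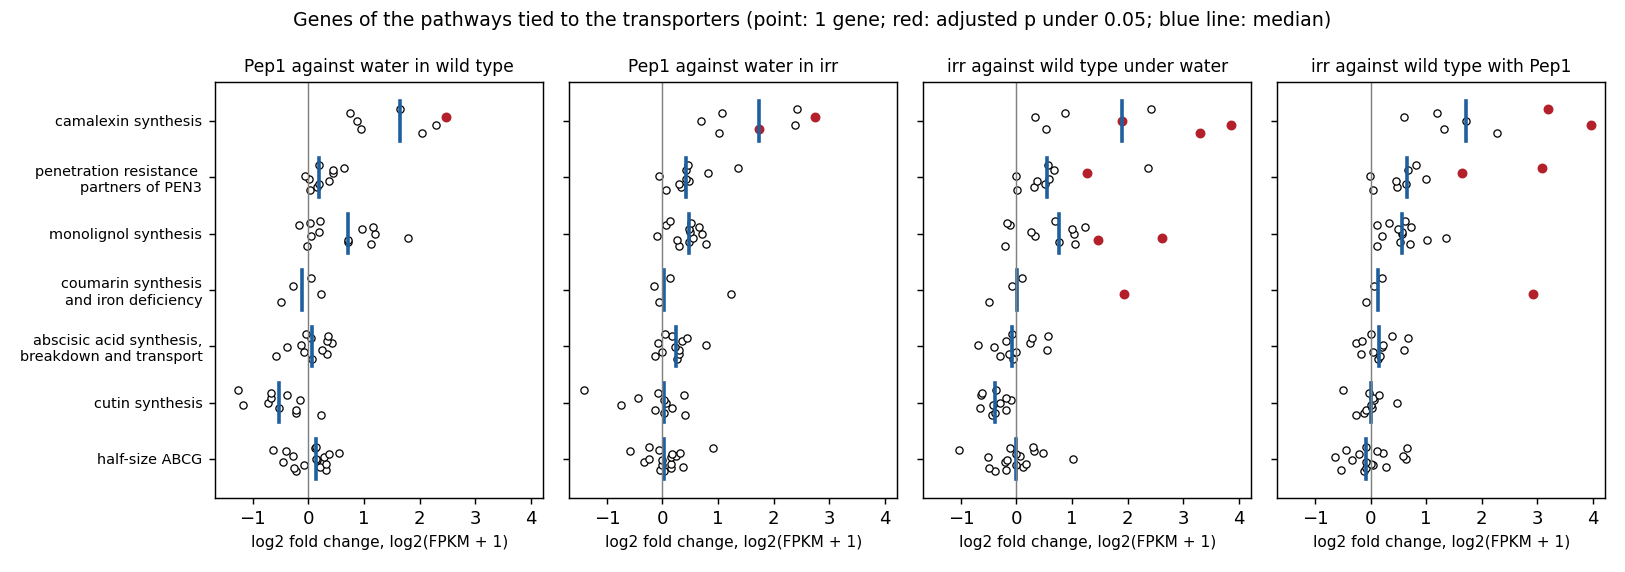
Log2 fold change on the log2(FPKM + 1) scale (horizontal axis) of genes in 7 lists tied to the transporters (vertical axis); a point is a gene, red points have an adjusted p under 0.05 and blue lines are medians. The camalexin list had the highest median in each comparison, from 1.64 to 1.89.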

How the data were processed

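The deposited values are FPKM, computed by the authors for 32846 genes in 12 libraries. The sources used here name no aligner, counter, build or annotation, so no coordinates or sequences are printed. Per the labels' protocols, DNase-treated total RNA was sequenced as paired ends at 20 M raw reads per sample. Reads behind each value were recovered by finding the total and gene length that give whole reads, with a tolerance of 0.01 of a read. For 1 of 10 members that length equals a transcript length of the TAIR10.1 reference, which served for names, overlaps and coding-sequence identity only.

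Values as log2(FPKM + 1) entered a limma model (version 3.58.1, run under R 4.3.3) that gave each group its own mean, with 8 residual degrees of freedom and a variance trend. P-values were two-sided and adjusted over all 18177 genes kept. On data simulated for the Pep1 comparison in wild type, 89% of 100 genes changed 2-fold and 99% of 100 changed 4-fold were called. The folds were of FPKM + 1, for genes above 1 as log2(FPKM + 1) in wild type with water. ABCG33 and ABCG40 lay below that. Noise was drawn for each gene apart, without shifts that genes of a library share. The simulated shares therefore do not show that a member not called was unchanged.

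The rule takes members by locus name, but members and lists were chosen with earlier results of these data known. Of 126 list entries, 2 whose symbol the reference lacks were dropped (S8H and COSY). All 10 members are named. For each member called, the 3 genes of highest Pearson r are named, and from each list up to 4 that passed. The planned protein identities and promoter motifs were not analysed here. Alternatives were other pseudocounts and filters, equal library medians, a replicate block, library weights, a fit of 2 groups and leaving out each library.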

Additional observations from a re-analysis of the deposited data

How the results depend on the processing

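Of 853 recomputed values of the 9 members under 20 alternatives, 0 reversed a call, 12 lost the threshold and 9 gained it. The number of members called for Pep1 in wild type was 2 as reported and 1 with a mean filter of 5 FPKM (which drops ABCG33), and ABCG29 was lost, leaving 1, with no filter and with a replicate block (limma adjusted p = 0.0667). It was 3 with library quality weights and in a fit of only the 2 groups, where PEN3 was added. In that fit of 2 groups ABCG33 passed the filter only through the Pep1 libraries, where it was high. The number called ranged from 0 to 2 with each replicate left out. In irr it was 1 with library quality weights and ranged from 0 to 3 with each replicate left out. For irr against wild type with Pep1 it was 2 with quality weights and ranged from 0 to 1. Whether the replicate numbers pair the libraries was not settled. Of 18 same-numbered pairs, 3 had a correlation over 0.1 (from -0.523 to 0.194), and 17 of 36 checks gave the highest correlation to the own number. Between wild type with water and with Pep1 the own number correlated highest each time, at only 0.037, 0.032 and 0.049. Counts over all genes ranged from 105 to 2025 for Pep1 in wild type (630 as reported), from 0 to 1398 in irr (362), from 46 to 1412 for irr under water (713), from 22 to 1821 with Pep1 (278) and from 0 to 7 for the interaction (0). With equal library medians 313 rose and 324 fell in wild type, against 387 and 243, and 433 were higher and 289 lower in irr under water, against 538 and 175. Where a call changed, the cause was not tested. Depth limits ABCG39, with 35 reads in all.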

Other observations

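Outside the 10 members, 5 further full-size ABCG genes were measured, of which 2 passed the filter. ABCG42 was at 7.16, 7.55 and 6.49 FPKM in wild type with water and at 17.6, 16.1 and 16.8 FPKM with Pep1, so the groups lay apart, but it missed the threshold (1.15 ± 0.37, limma adjusted p = 0.111). In irr it was at 15.9, 5.62 and 16.5 FPKM with water and at 14.7, 38.3 and 15.8 FPKM with Pep1. ABCG30 stood at 3.46 ± 1.60 and 4.39 ± 0.466 FPKM in wild type. Of the 28 genes for the smaller ABCG proteins with a single transport unit, 17 were tested and 0 passed in any comparison (limma). Between 1.53% and 3.92% of all genes were called in the comparisons of treatments and of genotypes, so a count of 0 is near that share. The most abundant were ABCG12 and ABCG7, with means of 55.3 and 25.2 FPKM over all libraries, and 2 genes were at 0 in every library.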
